A study of Mus musculus with 15 samples.

Results

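The respiratory chain and ATP synthase genes were taken as those whose symbol names a subunit of NADH dehydrogenase (Ndufa, Ndufb, Ndufc, Ndufs and Ndufv genes, complex I), the cytochrome bc1 complex (Uqcr genes, complex III), cytochrome c oxidase (Cox4 to Cox8 genes, complex IV) or ATP synthase (Atp5 genes, complex V). Of 18193 genes with an array probe set of their own, 77 met this rule, 35 in complex I, 8 in complex III, 17 in complex IV and 17 in complex V. Where several probe sets named a gene alone, the brightest on average over the 15 arrays stood for it. A filter on low signal passed 75 of them among 13703 genes tested, and left out Ndufb4 and Cox7b2. The assignment to complexes follows the symbols. Ndufa4 and its relative Ndufa4l2 are therefore counted under complex I, although the Ndufa4 protein is now placed in cytochrome c oxidase.

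The arrays held RNA from macrophages grown from mouse bone marrow for 7 days with M-CSF, the growth factor on which these cells depend. M1 cells had been given bacterial lipopolysaccharide (LPS) and interferon-gamma. M2 cells with nutlin-3a had been given IL-4, IL-13 and nutlin-3a, which frees p53 from its inhibitor MDM2, and M2 cells with 10058F4 had been given the same cytokines and 10058F4, a MYC inhibitor. M2 cells had been given IL-4 and IL-13 alone, and M0 cells no treatment. Each group had 3 arrays. No strain, age, genotype, dose or vehicle is given in the sources used here, so whether the M2 cells received the agents' solvent is not known. The replicates are called biological, but nothing says that they came from separate mice or cultures. The p-values therefore reflect the spread among these samples and no more, and that spread may be technical.

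The respiratory chain sits in the inner mitochondrial membrane. Complexes I, III and IV pass electrons from NADH to oxygen by way of ubiquinone and cytochrome c and pump protons outward, and complex V lets the protons return and makes ATP. Macrophages given LPS and interferon-gamma are known for a shift towards glycolysis, and macrophages given IL-4 for reliance on oxidative metabolism, which makes the subunit genes of interest in this design. Some core subunits, among them cytochrome b of complex III, are encoded in mitochondrial DNA and are not among the genes described here.

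The sequence just upstream of the start site is shown for the 3 genes that encode the same ring protein of ATP synthase, subunit c, for the complex I genes with the largest rise and fall in M1 cells against M0 cells, and for the complex III gene with the largest fall. Each run is 100 bases before the RefSeq start (build GRCm38.p6), printed 5′ to 3′ on the gene's strand, which was the minus strand for all 6. Capitals mark a match to one of the motifs described after the sequences.
Atp5g1, chr11:96075632-96075731: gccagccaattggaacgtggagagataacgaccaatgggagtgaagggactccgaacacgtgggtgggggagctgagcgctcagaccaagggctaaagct
Atp5g2, chr15:102671048-102671147: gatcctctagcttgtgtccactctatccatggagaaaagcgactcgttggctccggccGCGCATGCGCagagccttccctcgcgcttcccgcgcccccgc
Atp5g3, chr2:73911327-73911426: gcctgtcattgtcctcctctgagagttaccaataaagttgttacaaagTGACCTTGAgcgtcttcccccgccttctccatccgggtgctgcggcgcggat
Ndufb1, chr12:101975739-101975838: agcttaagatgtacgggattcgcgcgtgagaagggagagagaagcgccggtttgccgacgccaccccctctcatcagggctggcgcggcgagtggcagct
Ndufb11, chrX:20617620-20617719: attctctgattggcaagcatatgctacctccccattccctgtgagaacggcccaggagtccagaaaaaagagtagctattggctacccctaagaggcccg
Uqcr11, chr10:80406822-80406921: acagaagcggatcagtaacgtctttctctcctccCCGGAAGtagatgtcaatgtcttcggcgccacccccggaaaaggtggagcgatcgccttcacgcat

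Of the 77 genes, 63 matched the RefSeq promoter table by symbol and had 68 promoters there, each from 250 bases before to 50 after the start. Both strands were searched for letters bound by factors that are known to act on nuclear genes for mitochondrial proteins. The palindromic NRF1 motif, marked in Atp5g2, lay in 5.88% of these promoters, against 0.971% of all 32851 promoters in the table. With 1 free base in its middle, a form that includes the first, the shares were 20.6% and 4.6%. The ETS motif CCGGAAG, read by GABP among others, was found in 22.1% against 8.86%, and the YY1 motif AAGATGGC in 13.2% against 2.75%. The cyclic AMP response element TGACGTCA was found in 4.41% against 1.79%. The estrogen-related receptor motif TCAAGGTCA was found in 1 promoter, that of Atp5g3 on the reverse strand, or 1.47% against 0.423%. These are matches of letters, not measured binding.

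Values are log2 expression as deposited, so a difference of 1 is a 2-fold change. Levels are given per array or as means with SD, and log2 differences (M1 minus M0, for example) with the standard error (SE) of limma's linear model over 15 arrays. A gene was called at a Benjamini-Hochberg adjusted p under 0.05 over all tested genes of that comparison, and having 3 arrays per group limits the precision. In RNA from whole cultures, fewer cells of a type and less RNA per cell cannot be told apart. Across probe sets, r lay between 0.989 and 0.997 for arrays of the same group, and M1 replicate 2 had the lowest. The 75th percentile of signal lay between 6.82 and 6.90 on M1 arrays and between 7.02 and 7.18 on the others. All 10 macrophage markers passed the filter, and they differed in direction: Mrc1 was at 4.74 in M1 cells, against 10.83 in M0 cells, and Fcgr1 at 12.51 in M1 cells, against 10.53 in M0 cells. Markers of other cells passed it too, 5 of 5 for dendritic cells, 5 of 6 listed for neutrophils, 4 of 5 for T cells, 4 of 5 for stromal cells, 2 of 4 for B cells and 1 of 4 for erythroid cells. Of these Xcr1 (6.05 in M1 cells, 3.55 in M0 cells), Ccr7 (5.41 in M1 cells, 3.82 in M0 cells) and Dcn (7.35 in M1 cells, 6.40 in M0 cells) were higher in M1 cells. Others on the same lists went the other way: Col1a2 was at 6.58 in M1 cells and 7.43 in M0 cells, and S100a9 at 4.53 and 5.31. Flt3 differed little, at 5.695 in M1 cells and 5.61 in M0 cells. Outside M1 cells the group means of Xcr1 (3.45 to 3.82) and Ccr7 (3.82 to 4.09) lay below the 40th percentile that the filter used. That percentile was 4.34 to 4.44 on those arrays. Their passing is therefore no separate observation from their higher level in M1 cells. The part of other cells in the results was not tested.

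M1 macrophages had lower levels of most subunit genes of complexes I, III and V in the deposited normalization. Complex IV genes went both ways, against M0 cells in smaller shares than among all genes. To place the complexes on each array, each gene's deviation from its own mean over 15 arrays was taken, and the median was formed over the genes of a complex. For complex I this median was -0.18, -0.32 and -0.24 on the M1 arrays, 0.06, 0.13 and 0.07 with nutlin-3a, -0.06, 0.02 and -0.04 with 10058F4, between 0.07 and 0.08 in M2 cells and 0.07, 0.17 and 0.06 in M0 cells. All 3 M1 arrays thus lay below all 12 others. For complex IV the M1 arrays gave 0.07, -0.07 and 0.03, and the M0 arrays -0.03, 0.01 and -0.02, and the groups overlapped.

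**Figure D1:**
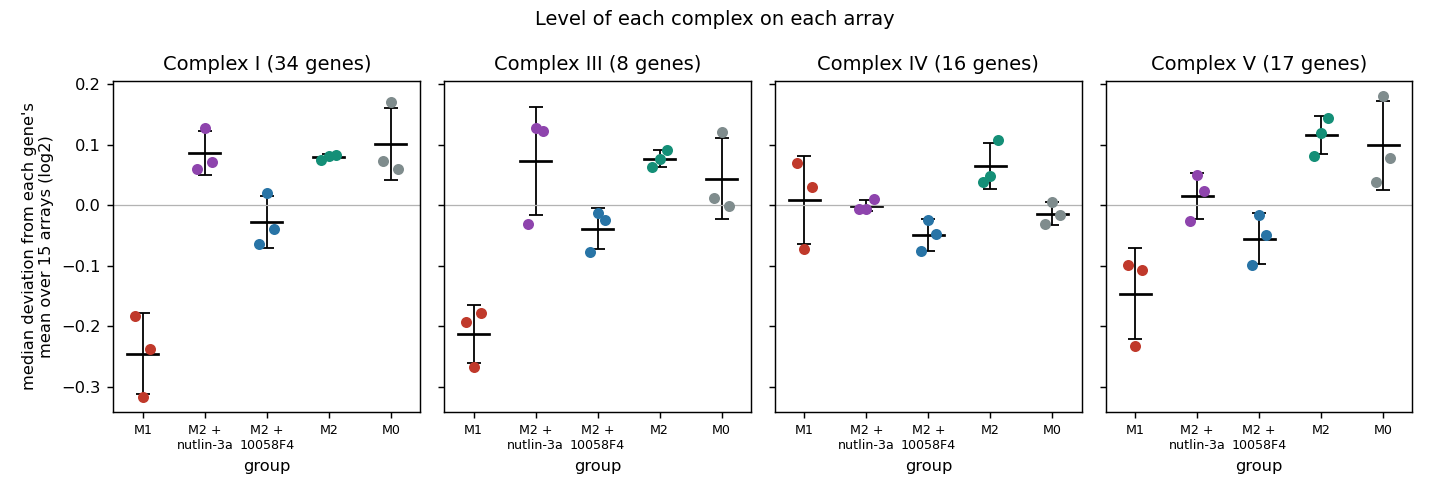
Median deviation of the genes of each complex from their own 15-array means (log2), one point per array, with group means and SD (n = 3). M1 arrays lie lowest for complexes I and III, but not for complex IV, in the deposited normalization. For complex V, M1 replicate 1 (-0.09981) lies level with 10058F4 replicate 1 (-0.09975).

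The difference between 2 complexes on the same array is not touched by adding a constant to an array, but a scaling that acts by signal level can change it, and complex IV holds more dim genes than the others. Complex I minus complex IV was -0.25, -0.24 and -0.27 on the M1 arrays. It was 0.07, 0.13 and 0.06 with nutlin-3a, 0.01, 0.04 and 0.01 with 10058F4, 0.04, 0.03 and -0.03 in M2 cells, and 0.10, 0.16 and 0.08 in M0 cells. Complex III minus complex IV was between -0.26 and -0.19 on the M1 arrays and between -0.02 and 0.13 on the other 12, and complex V minus complex IV was between -0.17 and -0.14 on the M1 arrays and between -0.02 and 0.17 on the others. On every M1 array the deviations of complexes I, III and V thus lay further below that of complex IV than on any other array. These medians over a chosen set of genes carry no test.

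M1 cells were set against M0 cells to see what LPS and interferon-gamma changed. Of the 75 tested subunit genes 9 rose (12%) and 49 fell (65.3%), and 17 were not called. Among all genes tested 33.6% rose and 39.1% fell. The groups' arrays did not overlap for 10 subunit genes that were higher and 49 that were lower, against 32.9% and 38.4% of all genes. The median log2 difference of the 75 genes was -0.25, against 0.00 for all genes. By 2-fold or more 1 of the 75 rose and 2 fell, against 5.71% and 12.7% of all genes.

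The direction of these counts depends on scaling. It held after repeated quantile normalization, with 10 subunit genes higher and 45 lower, beside 37.8% and 32.7% of all genes. It also held with arrays centred on the median of all probe sets, with 6 higher and 51 lower, beside 28% and 42.2%. When arrays were centred on the median of the tested genes, an alternative added after seeing the data, the all-gene median moved from -0.005 to 0.321, and 29 subunit genes were called higher and 19 lower, beside 55.6% and 25.6% of all genes. Such centring moves all genes of an array alike, so values relative to the all-gene median cannot change: -0.31 for complex I, -0.23 for complexes III and V and 0.08 for complex IV. After repeated quantile normalization, which is no constant shift, they were -0.34 for complex I, -0.285 for complex III, -0.32 for complex V and 0.02 for complex IV. After centring on the tested genes Ndufb11 stood at -0.65, Ndufs8 and Ndufa12 at -0.62, Uqcr11 at -0.43 and Ndufb1 at 1.79. The excess of 3′ over 5′ signal on the beta-actin controls, which reflects how intact the RNA was, stood at 0.178 ± 0.0444 in M1 cells and 0.351 ± 0.0543 in M0 cells (SD, n = 3). On the Gapdh controls the order was the opposite, with -0.162 ± 0.0347 in M1 cells and -0.273 ± 0.015 in M0 cells, and the part of RNA integrity in these differences was not tested.

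**Figure D2:**
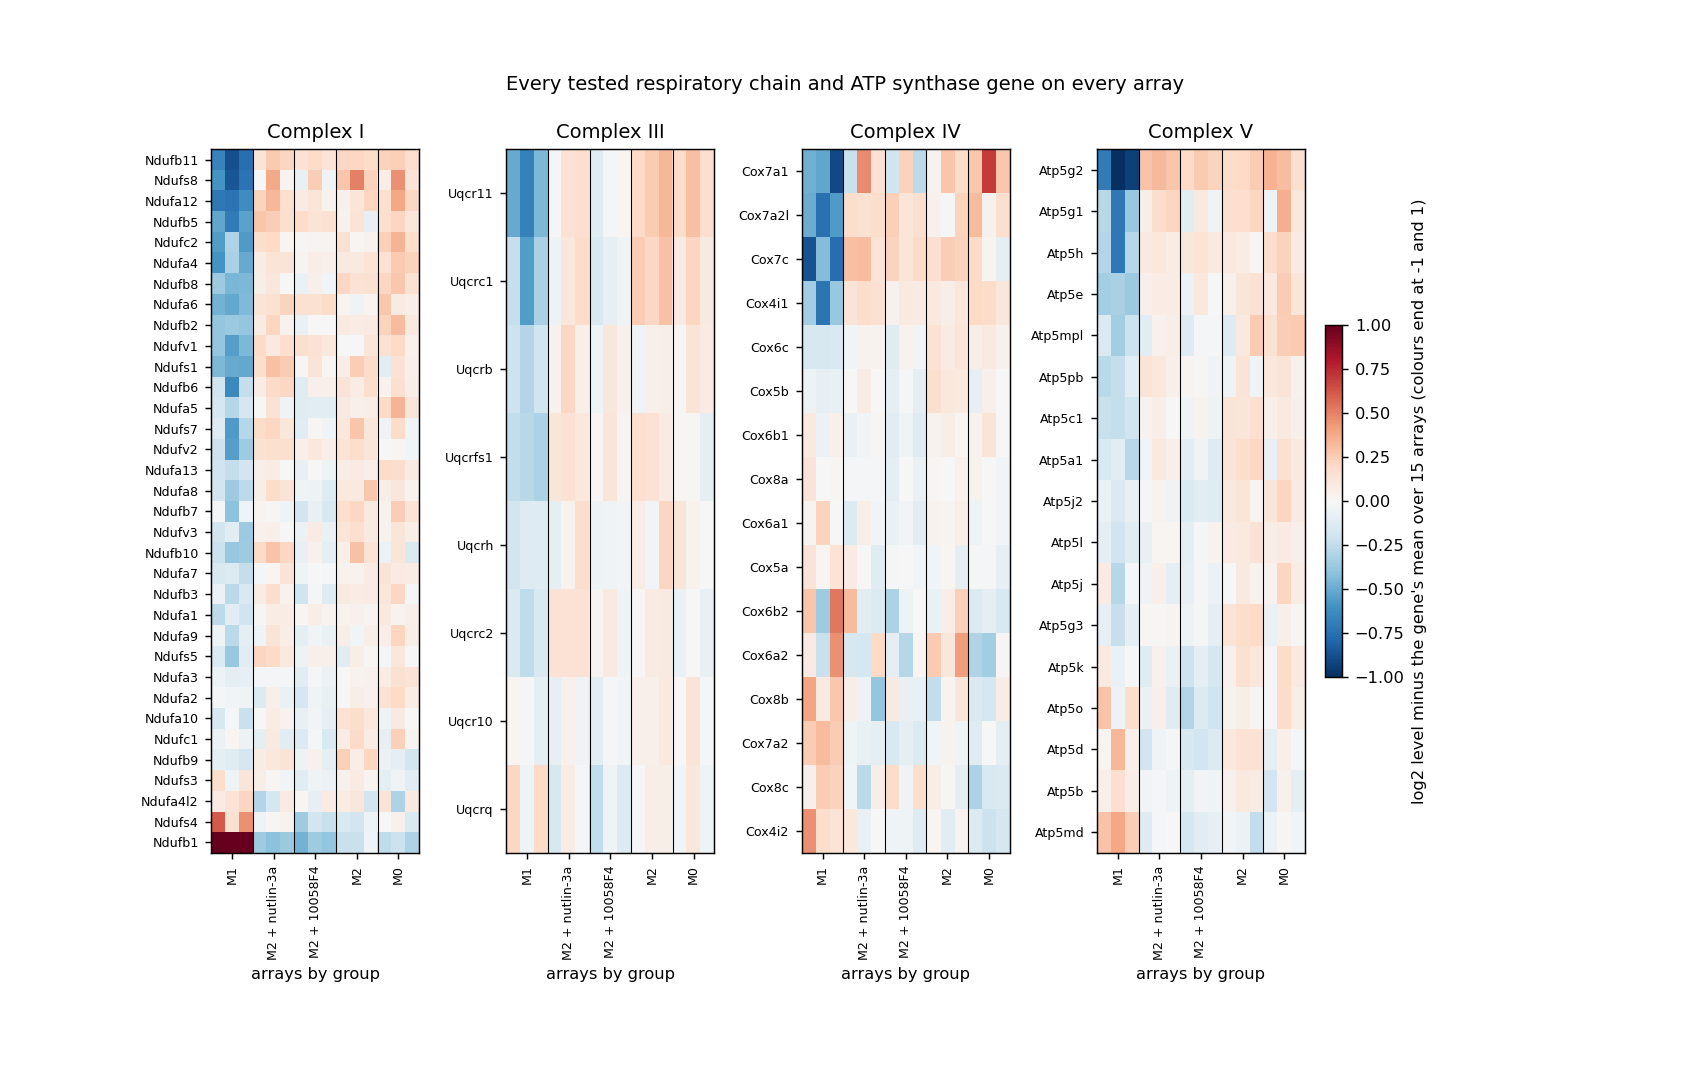
Every tested subunit gene (down the page, grouped by complex) on each of 15 arrays (across, in 5 groups), coloured by log2 level minus the gene's own mean, with colours ending at -1 and 1. M1 columns are blue for most of complexes I, III and V, a direction that turned for many of these genes when arrays were centred on the tested genes, and red for Ndufb1.

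In complex I, 28 of 34 tested genes fell in M1 cells and 3 rose, with a median of -0.32. Ndufb11, an accessory subunit of the membrane arm, was at 10.54, 10.33 and 10.45 on M1 arrays, against 11.44, 11.44 and 11.37 on M0 arrays. The M1 arrays lay well below, with no overlap, at 0.508 times the M0 level (log2 difference -0.98, SE 0.06, adjusted p = 4.82e-09). Its 3 probe sets gave -0.98, -0.96 and -0.88. Ndufs8, which holds iron-sulfur clusters on the electron path to ubiquinone, followed at -0.95 (SE 0.13), and Ndufa12, an accessory subunit of the NADH-oxidising module, at -0.94 (SE 0.07). Other falls were those of Ndufb5 (-0.75), Ndufc2 (-0.73), Ndufa4 (-0.69), Ndufb8 (-0.63) and Ndufa6 (-0.62), and of Ndufv1 (-0.59) and Ndufs1 (-0.51), 2 core subunits of the NADH-oxidising module.

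In the deposited normalization the falls reached every module of complex I. In the NADH-oxidising module 8 of 9 tested genes fell and 1 rose, with a median of -0.37. In the ubiquinone-binding module 4 of 5 fell and 1 rose, also with a median of -0.37. In the membrane arm 15 of 18 fell and 1 rose, with a median of -0.29. With arrays centred on the tested genes, Ndufs8 alone kept a lower call in the ubiquinone-binding module. Ndufv1, Ndufs1, Ndufa6 and Ndufa12 kept it in the NADH-oxidising module, and Ndufb2, Ndufb5, Ndufb8, Ndufb11 and Ndufc2 in the membrane arm. Ndufa2, Ndufa3, Ndufa10, Ndufb9 and Ndufc1 were then called higher. With Ndufa4 and Ndufa4l2 placed under complex IV, 27 of 32 complex I genes fell and 3 rose.

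Ndufb1, another small accessory subunit of the membrane arm, went the other way. Its level was 8.81, 8.60 and 8.66 on M1 arrays, against 7.23, 7.26 and 7.17 on M0 arrays, and the arrays did not overlap. It rose 2.77-fold (log2 difference 1.47, SE 0.07, adjusted p = 2.1e-10) on the only probe set that names it. The other rises in complex I were those of Ndufs4, an accessory subunit of the NADH-oxidising module (0.44, SE 0.10), and Ndufs3, a core subunit of the ubiquinone-binding module (0.16, SE 0.06). For Ndufs4 the 4 probe sets disagreed, at 0.44, 0.17, -0.59 and 0.17, and the M1 and M0 arrays of Ndufs3 overlapped. The Ndufs3 call was lost with arrays centred on the median of all probe sets, on 6 arrays alone, and without M1 replicate 1 or 3 or M0 replicate 1 or 3.

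In complex III, 6 of 8 genes fell in M1 cells and 2 were not called. Uqcr11, a small accessory subunit, was at 9.77, 9.61 and 9.83 on M1 arrays, against 10.46, 10.58 and 10.44 on M0 arrays, with no overlap. It fell by 0.76 (SE 0.08, adjusted p = 6.35e-07). Uqcrc1, a core protein of the complex, differed by -0.50 (SE 0.09) and Uqcrfs1, the Rieske iron-sulfur protein, by -0.26 (SE 0.06). Uqcr10 (-0.06) and Uqcrq (0.10) were not called.

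In complex IV, 4 of 16 tested genes rose in M1 cells (25%), 5 fell (31.2%) and 7 were not called. Both shares were below those of all genes, 33.6% and 39.1%. Among the 9 whose mean signal was above the 90th percentile of the arrays, 1 rose, 3 fell and the median was -0.03. The 7 dimmer ones were mostly isoforms known from heart, muscle, lung or testis, namely Cox4i2, Cox6a2, Cox6b2, Cox7a1, Cox8b and Cox8c, together with Cox7c. Low signals of this kind are not shown to be far above background, so their differences are not exact sizes.

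Subunit 4 has a ubiquitous isoform, Cox4i1, and an isoform known from lung and low oxygen, Cox4i2, and they moved in opposite directions. Cox4i1 was at 11.83, 11.45 and 11.80 on M1 arrays, against 12.38, 12.36 and 12.29 on M0 arrays. It fell by 0.65 (SE 0.08, adjusted p = 7.42e-06). Cox4i2 was at 6.26, 5.98 and 5.94 on M1 arrays, against 5.66, 5.58 and 5.63 on M0 arrays, and rose by 0.43 (SE 0.08, adjusted p = 3.34e-04). Neither gene's groups overlapped, and both directions held under each scaling tried.

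The subunit 7a family was split as well. Cox7a2, the form found in most tissues, was at 12.24, 12.30 and 12.24 on M1 arrays, against 11.86, 11.99 and 11.89 on M0 arrays, and rose by 0.34 (SE 0.06, adjusted p = 6.7e-05). Cox7a2l, a relative that helps to join complexes III and IV into supercomplexes, was at 10.49, 10.24 and 10.42 on M1 arrays, against 11.30, 11.03 and 11.15 on M0 arrays, and fell by 0.77 (SE 0.09, adjusted p = 1.76e-06). For both genes every probe set went the same way. Cox7a1, the heart and skeletal muscle form, was at 5.23, 5.19 and 4.80 on M1 arrays, against 5.98, 6.41 and 5.98 on M0 arrays, and differed by -1.05 (SE 0.18, adjusted p = 1.39e-04).

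Of the other isoform families, subunit 6a has a form found in most tissues, Cox6a1, and a muscle form, Cox6a2. Cox6a1 was at 13.14, 13.34 and 13.13 on M1 arrays, against 13.07, 13.12 and 13.09 on M0 arrays, and was not called (0.11, SE 0.07). Cox6a2 was at 6.29, 5.99 and 6.67 on M1 arrays, against 5.91, 5.86 and 6.22 on M0 arrays, where the groups overlapped and the difference of 0.32 (SE 0.16) was not called. Cox6b1, which faces the intermembrane space, was at 12.42, 12.26 and 12.37 on M1 arrays, against 12.36, 12.45 and 12.32 on M0 arrays. Its testis form Cox6b2 was at 5.47, 4.84 and 5.73 on M1 arrays, against 5.06, 5.10 and 5.04 on M0 arrays, and both genes overlapped between groups and were not called.

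Subunit 8 has 3 genes. Cox8a, found in most tissues, was at 11.24, 11.11 and 11.12 on M1 arrays, against 11.15, 11.12 and 11.08 on M0 arrays, and was not called (0.04). Cox8c, the testis form, was at 7.25, 7.45 and 7.43 on M1 arrays, against 6.88, 7.04 and 7.05 on M0 arrays. It rose by 0.38 without overlap (SE 0.10), and its second probe set gave 2.02. Cox8b, the heart form, was at 5.25, 4.95 and 5.13 on M1 arrays, against 4.72, 4.68 and 4.94 on M0 arrays, and rose by 0.33 (SE 0.13, adjusted p = 0.0289). That call was lost when any of M1 replicates 1 and 3 and M0 replicates 1 and 2 was left out.

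Ndufa4 was at 10.60, 10.87 and 10.69 on M1 arrays, against 11.34, 11.46 and 11.42 on M0 arrays, and fell by 0.69 without overlap (SE 0.07, adjusted p = 4.97e-07). Ndufa4l2, a relative known to be induced by low oxygen, was between 5.49 and 5.62 on M1 arrays, against 5.10 to 5.54 on M0 arrays. Its groups overlapped and it was not called (0.17, SE 0.12).

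In complex V, 10 of 17 genes fell in M1 cells and 2 rose, with a median of -0.23. Subunit c, which forms the rotating ring in the membrane, is made from Atp5g1, Atp5g2 and Atp5g3, which encode the same mature protein. Atp5g2 was at 9.95, 9.25 and 9.71 on M1 arrays, against 10.99, 10.96 and 10.81 on M0 arrays, with no overlap. It stood at 0.411 times its M0 level (log2 difference -1.28, SE 0.13, adjusted p = 4.22e-07). A dimmer second probe set gave -0.45, and the remaining one did not pass the filter.

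Atp5g1 was at 9.19, 8.75 and 9.09 on M1 arrays, against 9.41, 9.83 and 9.57 on M0 arrays, and fell by 0.59 (SE 0.12, adjusted p = 3.61e-04). Atp5g3 was at 12.35, 12.20 and 12.34 on M1 arrays, against 12.36, 12.49 and 12.44 on M0 arrays, and differed by -0.13 (SE 0.06, adjusted p = 0.0583). Whether the 3 differences themselves differ was not tested, and M1 replicate 2 was the lowest M1 array for each. With arrays centred on the tested genes, Atp5g2 remained lower (-0.96), Atp5g1 was no longer called (-0.27) and Atp5g3 differed by 0.19.

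Other falls in complex V were those of Atp5h, in the stalk that holds the enzyme's head (-0.59, SE 0.09), Atp5e, in the central stalk (-0.50, SE 0.06), and the membrane proteolipid Atp5mpl (-0.45). Atp5md, a small membrane subunit, was at 10.47, 10.56 and 10.43 on M1 arrays, against 10.12, 10.19 and 10.15 on M0 arrays. It rose by 0.33 (SE 0.07, adjusted p = 6.83e-04), and its groups did not overlap. The catalytic subunit Atp5b rose by 0.18 (SE 0.06), and its partner in the head, Atp5a1, fell by 0.24 (SE 0.07). The Atp5b call was lost with arrays centred on the median of all probe sets, on 6 arrays alone, with array weights, and without M1 replicate 2, M0 replicate 1 or M0 replicate 3.

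**Figure D3:**
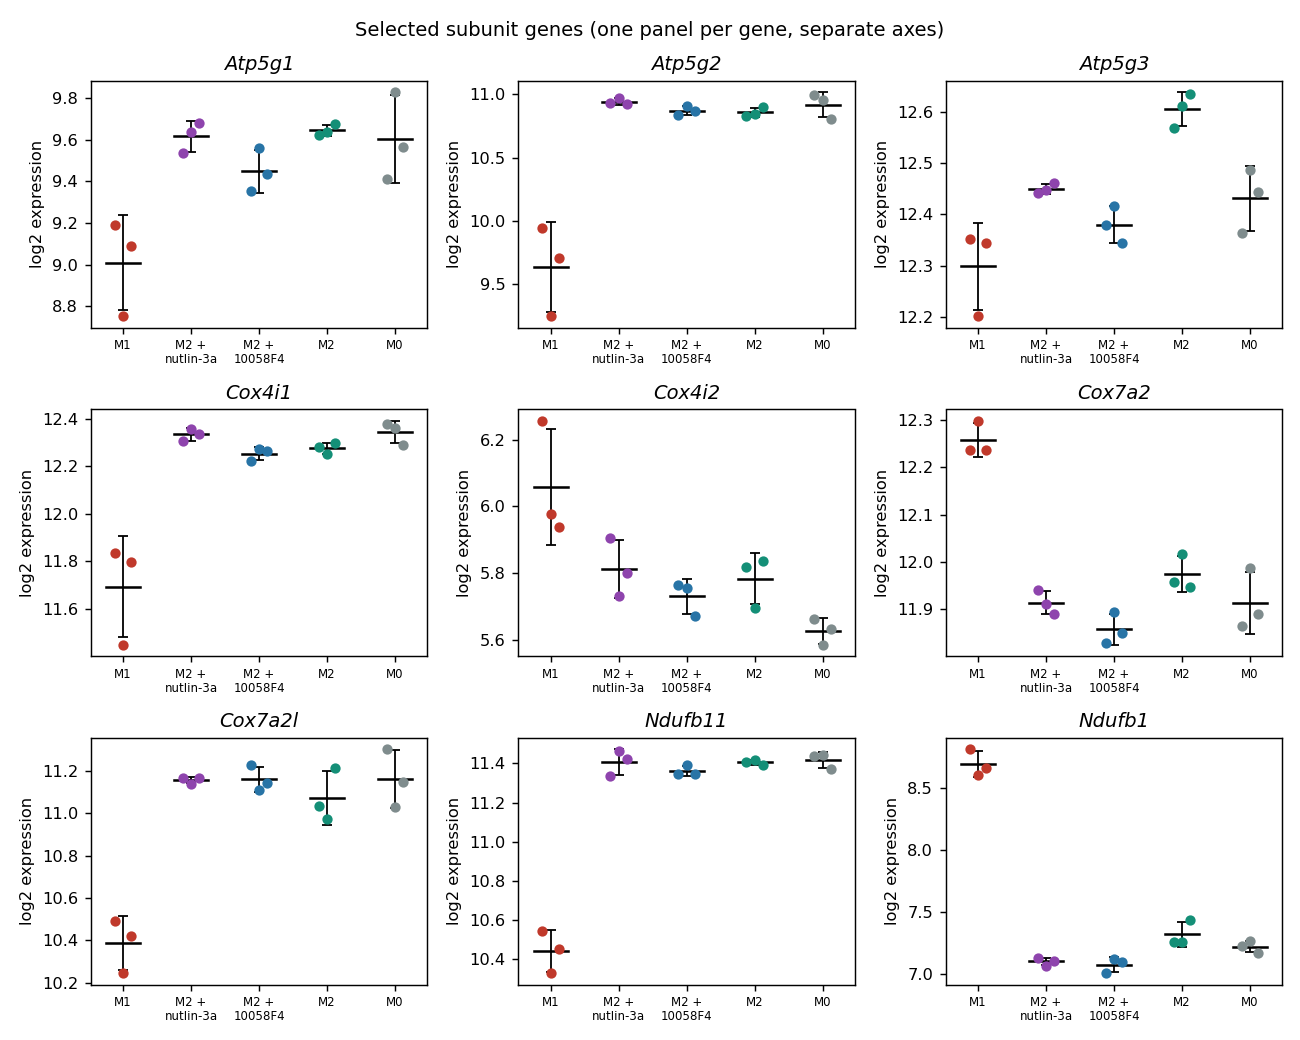
log2 expression of 9 subunit genes on 15 arrays, one panel and one axis per gene, with group means and SD (n = 3). In M1 cells Ndufb1, Cox4i2 and Cox7a2 lie above the other groups and Atp5g2, Ndufb11, Cox4i1 and Cox7a2l below them.

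M2 cells were set against M0 cells to see what the 2 cytokines changed. Of the subunit genes 3 of 75 rose (4%) and none was called lower by limma, against 12.7% higher and 18.4% lower among all genes. At an unadjusted p under 0.05, 7 were higher and 3 lower, against 41% of all genes in either direction. Arrays did not overlap for 17 genes that were higher and 7 that were lower, against 20.9% and 26.4% of all genes, and the median difference was 0.02. The count depends on scaling: 8 were called higher after repeated quantile normalization, beside 15.2% of all genes. With arrays centred on the tested genes 14 were called higher, beside 20.4%. With arrays centred on the median of all probe sets 2 were called higher, beside 10.3%.

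Ndufb9, a membrane-arm subunit of complex I, was at 11.28, 11.11 and 11.26 on M2 arrays, against 10.98, 10.94 and 10.85 on M0 arrays. It rose by 0.29 (SE 0.06, adjusted p = 0.00384). Atp5g3 was at 12.57, 12.61 and 12.63 on M2 arrays, against 12.36, 12.49 and 12.44 on M0 arrays, and rose by 0.17 (SE 0.06, adjusted p = 0.0387). Cox6a2, the muscle form of subunit 6a, was at 6.47, 6.32 and 6.63 on M2 arrays, against 5.91, 5.86 and 6.22 on M0 arrays, and rose by 0.48 (SE 0.16, adjusted p = 0.036). None of the 3 genes' groups overlapped.

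With the replicate number as a block, 5 subunit genes were called higher in M2 cells, Atp5b and Uqcrfs1 being added. Without M0 replicate 1, M2 replicate 1 or M2 replicate 3, 1 gene was called in each case, Ndufb9. The Atp5g3 call was also lost without M0 replicate 3 or M2 replicate 2. It was lost too with no filter, with arrays centred on the median of all probe sets and on 6 arrays alone. The Cox6a2 call was also lost without M0 replicate 2. The isoform sets otherwise gave M2 minus M0 differences of -0.06 for Atp5g2, 0.04 for Atp5g1, -0.07 for Cox4i1, 0.16 for Cox4i2 and 0.06 for Cox7a2, and these 5 were not called.

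M1 cells were also set against M2 cells, with the same M1 arrays as above. Of the 75 genes 5 were higher (6.67%) and 49 lower (65.3%) in M1 cells, against 28.1% and 36.5% of all genes. Arrays did not overlap for 6 higher and 53 lower genes, against 28.7% and 36.2%. Repeated quantile normalization gave 7 higher and 49 lower, beside 33.8% and 32.6% of all genes. Centring on the median of all probe sets gave 5 and 50, beside 25.2% and 37.6%. With arrays centred on the tested genes the calls became 20 higher and 26 lower, beside 50.3% and 26.6% of all genes. By complex, 26 of 34 genes of complex I were lower and 2 higher, 6 of 8 lower in complex III, 6 of 16 lower and 2 higher in complex IV, and 11 of 17 lower and 1 higher in complex V. The medians were -0.33, -0.25, 0.01 and -0.25 in that order.

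Ndufs8 was at 9.95, 9.69 and 9.81 on M1 arrays, against 10.83, 11.06 and 10.78 on M2 arrays. It was 0.477 times its M2 level (log2 difference -1.07, SE 0.13, adjusted p = 5.2e-06), and 5 of its 6 probe sets gave -1.04 or below while the other, at a lower signal, gave -0.35. Cox7c, a small subunit of complex IV, was at 4.77, 5.20 and 4.87 on M1 arrays, against 5.80, 5.88 and 5.87 on M2 arrays, and fell by 0.90 (SE 0.10, adjusted p = 2.39e-06) on a low signal. Its second probe set gave -0.18. On M2 arrays Ndufb1 was at 7.26, 7.26 and 7.44, Atp5md at 10.16, 10.12 and 9.94, Uqcr11 at 10.48, 10.54 and 10.61, and Atp5g2 at 10.83, 10.85 and 10.90, and none of these 4 overlapped with the M1 arrays given above. Ndufb1 (1.37, SE 0.07), Atp5md (0.42, SE 0.07) and Cox7a2 (0.28, SE 0.06) were higher in M1 cells, and Uqcr11 (-0.81, SE 0.08) and Atp5g2 (-1.22, SE 0.13) lower.

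Ndufb11 (-0.97), Cox4i1 (-0.58), Cox7a2l (-0.69), Cox7a1 (-0.80), Ndufa4 (-0.58) and Atp5g1 (-0.64) were lower in M1 than in M2 cells too, and Atp5g3, not called against M0 cells, differed by -0.31 (SE 0.06, adjusted p = 3.95e-04). Cox4i2 was higher by 0.27 (SE 0.08, adjusted p = 0.00987), a call lost without M1 replicate 1. Without M1 replicate 2, 8 genes were called higher in place of 5.

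**Figure D4:**
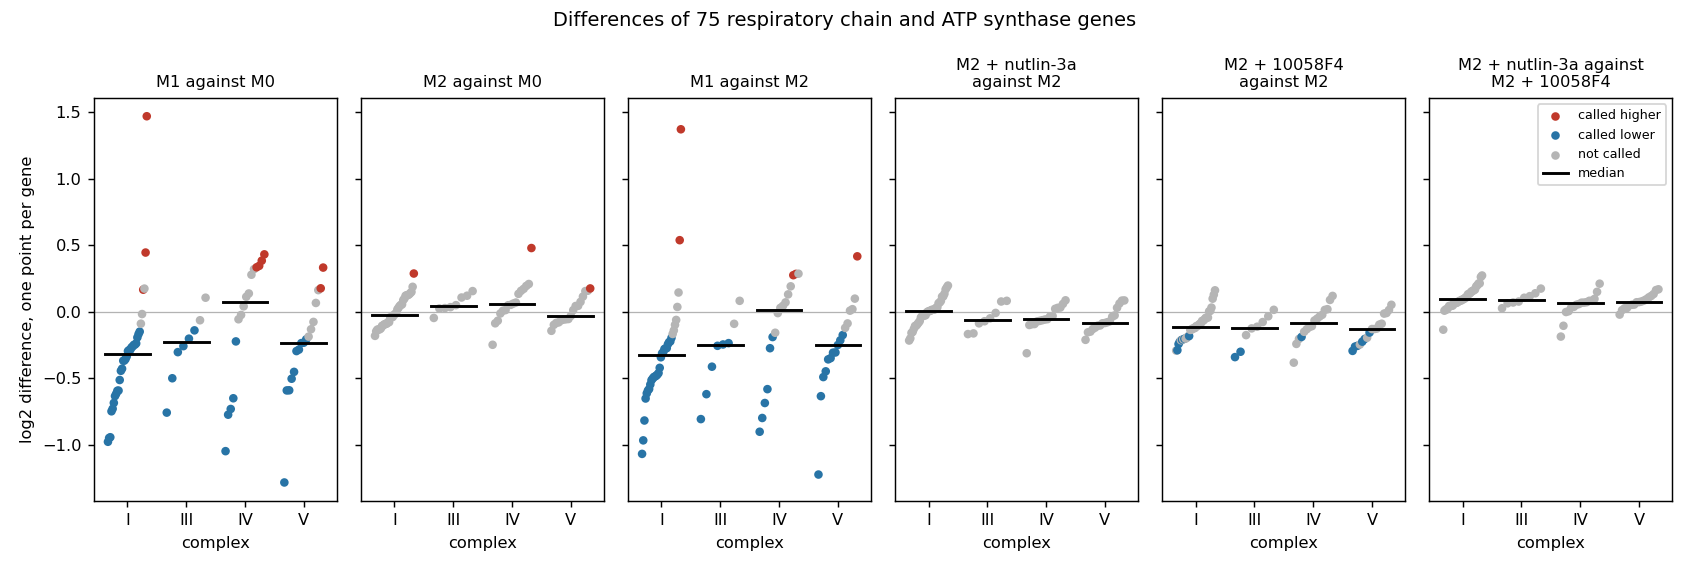
log2 difference of each of the 75 tested subunit genes in 6 comparisons, by complex (one point per gene, black bars the medians of a complex, colours the limma calls). In both comparisons with M1 cells most points of complexes I, III and V lie below 0 in the deposited normalization, where centring on the tested genes turned many calls, and the points of the other comparisons lie close to 0.

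Nutlin-3a and 10058F4 were each compared with the same 3 M2 arrays. With nutlin-3a none of the 75 genes was called by limma in either direction, against 9.56% higher and 5.85% lower among all genes, and at an unadjusted p under 0.05 there were 3 higher and 3 lower, against 29% of all genes in either direction. Arrays did not overlap for 7 higher and 21 lower genes, against 21.9% and 17% of all genes. The medians were 0.00 for complex I, -0.06 for complexes III and IV and -0.09 for complex V.

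Among the genes nearest to the threshold, Ndufb1 was at 7.13, 7.07 and 7.11 with nutlin-3a, against 7.26, 7.26 and 7.44 in M2 cells (log2 difference -0.22, SE 0.07, adjusted p = 0.0532). With the replicate block Cox6a2 was called lower (-0.31). A p that misses the threshold does not show that the levels were the same. The 3′ excess of the beta-actin signal was 0.453 ± 0.0346 with nutlin-3a, 0.489 ± 0.025 with 10058F4 and 0.382 ± 0.0302 in M2 cells (SD, n = 3). On the Gapdh controls the values were -0.281 ± 0.0136 with nutlin-3a, -0.272 ± 0.00988 with 10058F4 and -0.283 ± 0.0321 in M2 cells, and the part of RNA integrity was not tested.

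With 10058F4, 15 of 75 genes were lower than in M2 cells (20%) and none was called higher, against 10.2% lower and 10.6% higher among all genes. At an unadjusted p under 0.05, 25 were lower and 1 higher, against 32.3% of all genes in either direction. Arrays did not overlap for 45 genes that were lower and 3 that were higher, against 22.2% and 22.1% of all genes. The differences were small, with a median of -0.12 and 62 of 75 below 0. The calls were 6 in complex I, 2 in complex III, 1 in complex IV and 6 in complex V.

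Uqcrc1 was at 9.71, 9.78 and 9.81 with 10058F4, against 10.11, 10.06 and 10.15 in M2 cells. All 10058F4 arrays lay below all M2 arrays (log2 difference -0.34, SE 0.09, adjusted p = 0.0113). Uqcr11 was lower as well (-0.30, SE 0.08). Atp5d, the delta subunit of the central stalk, was at 11.14, 11.11 and 11.16 with 10058F4, against 11.41, 11.44 and 11.44 in M2 cells (-0.30, SE 0.08, adjusted p = 0.018). Beside it Atp5a1 (-0.26), Atp5g3 (-0.23) and the central-stalk subunit Atp5c1 (-0.16) were lower.

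Ndufb7, a membrane-arm subunit, was at 10.20, 10.31 and 10.23 with 10058F4, against 10.55, 10.59 and 10.47 in M2 cells (-0.29, SE 0.09, adjusted p = 0.0405). With the replicate block this call was lost (adjusted p = 0.0523), and Cox6a2 (-0.38) and Ndufc1 (-0.22) were called lower. Of complex I the other 5 called genes were Ndufb1 (-0.24), Ndufa8 (-0.23), Ndufb9 (-0.21), Ndufa10 (-0.20) and Ndufb8 (-0.18). All 6 belong to the membrane arm as grouped here, in which 6 of 18 genes were called, beside 10.2% of all genes. In the NADH-oxidising module 0 of 9 were called and in the ubiquinone-binding module 0 of 5. There limma gave 0 and 2 lower at an unadjusted p under 0.05. The medians of the 3 modules in this order were -0.16, -0.07 and -0.19. Arrays did not overlap for 14, 5 and 3 of their genes that were lower, against 22.2% of all genes. Whether the modules differ was not tested. Cox5b, a subunit on the matrix side of complex IV, was at 12.02, 12.10 and 12.03 with 10058F4, against 12.28, 12.22 and 12.22 in M2 cells (-0.19, SE 0.06, adjusted p = 0.0268).

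The 15 calls with 10058F4 depended on scaling and on single arrays. With arrays centred on the median of all probe sets 8 were lower, beside 8.9% of all genes. Array weights gave 23, for which no share of all genes is given here, so that rise is not read as a result about these genes. Leaving out M2 replicates 1, 2 and 3 in turn left 8, 7 and 2 calls, and leaving out 10058F4 replicates 1, 2 and 3 left 1, 10 and 3. The medians of the complexes lay between -0.13 and -0.09.

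Nutlin-3a was also compared directly with 10058F4. No subunit gene was called by limma, against 4.24% higher and 2.72% lower with nutlin-3a among all genes, and 8 were higher at an unadjusted p under 0.05, all in complex I, against 19.1% of all genes in either direction. Arrays did not overlap for 26 genes that were higher with nutlin-3a and for none that were lower, against 19% and 13%. Ndufb10, a membrane-arm subunit, was at 9.59, 9.67 and 9.59 with nutlin-3a, against 9.32, 9.43 and 9.29 with 10058F4 (log2 difference 0.27, SE 0.08, adjusted p = 0.0691), and was called with the replicate block.

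Complex II, succinate dehydrogenase, feeds electrons from the citric acid cycle into the chain and has 4 subunit genes. In M1 cells against M0 cells 1 of the 4 rose and 2 fell, against 33.6% and 39.1% of all genes. With arrays centred on the tested genes 2 were higher and 1 lower, beside 55.6% and 25.6%. As deposited, Sdha, the flavin-binding catalytic subunit, fell by 0.49 (SE 0.07) and Sdhd, a membrane anchor, rose by 0.27 (SE 0.06). Sdhc fell by 0.25 (SE 0.08, adjusted p = 0.0114), and Sdhb was not called. With 10058F4, 3 of the 4 were lower than in M2 cells, against 10.2% of all genes. Sdhc, the other anchor, was at 8.78, 8.89 and 8.74 with 10058F4, against 9.17, 9.24 and 9.28 in M2 cells (-0.42, SE 0.08, adjusted p = 0.00145). Sdhb, the iron-sulfur subunit, averaged 11.10 ± 0.0415 with 10058F4 and 11.50 ± 0.0422 in M2 cells (-0.40, SE 0.06, adjusted p = 1.35e-04). Sdhb was also lower with nutlin-3a than in M2 cells (-0.20, SE 0.06, adjusted p = 0.0254), and it was higher with nutlin-3a than with 10058F4 (0.20).

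Assembly factors build and insert cofactors into the complexes. In M1 cells against M0 cells 9 of 39 rose and 21 fell in the deposited normalization, and 16 were higher and 10 lower with arrays centred on the tested genes. The shares of all genes were 33.6% and 39.1% as deposited and 55.6% and 25.6% when centred, and they apply to each list of this comparison that follows. Sco1 and Sco2 deliver copper to cytochrome c oxidase. Sco1 was at 8.77, 8.46 and 8.95 on M1 arrays, against 6.47, 6.33 and 6.39 on M0 arrays, and rose 5.04-fold (log2 difference 2.33, SE 0.13). Sco2 was at 5.84, 5.83 and 6.07 on M1 arrays, against 7.34, 7.46 and 7.49 on M0 arrays, and fell by 1.52 (SE 0.08). Neither gene's groups overlapped, and each gene had only 1 probe set that names it alone. In M2 cells Sco1 was lower than in M0 cells (-0.60, SE 0.13). With 10058F4, 7 of 39 assembly factors were lower than in M2 cells and 3 higher, against 10.2% and 10.6% of all genes, among them Cox20 (-0.43), which assists subunit 2 of complex IV, and Cox15 (0.44), which makes its haem.

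Cytochrome c carries electrons from complex III to complex IV. Its gene Cycs was at 12.38, 12.22 and 12.47 on M1 arrays, against 10.99, 11.28 and 11.13 on M0 arrays, and rose 2.33-fold (log2 difference 1.22, SE 0.09). Hccs, the enzyme that attaches haem to cytochrome c, fell by 0.74 (SE 0.08). Cycs rose by 0.33 in M2 cells against M0 cells (SE 0.09, adjusted p = 0.0161). Together with the genes of ubiquinone synthesis, 4 of 14 rose and 8 fell in M1 cells, which became 6 and 3 with arrays centred on the tested genes. With 10058F4 Coq7, a hydroxylase of ubiquinone synthesis, was lower than in M2 cells (-0.51, SE 0.07).

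Ppargc1b is a coactivator (PGC-1 beta) of nuclear receptors that drives mitochondrial genes, and of 21 tested regulators of mitochondrial gene expression it had the largest rise in M2 cells. It was at 9.17, 9.16 and 9.03 on M2 arrays, against 7.45, 7.53 and 7.47 on M0 arrays. It rose 3.11-fold (log2 difference 1.64, SE 0.09), with no overlap. On M1 arrays it was at 8.04, 8.29 and 8.06, above all M0 arrays and below all M2 arrays. It was at 8.24, 8.16 and 7.96 with nutlin-3a and at 8.06, 8.02 and 7.88 with 10058F4, below the same M2 arrays in both cases (log2 difference -0.998 with nutlin-3a and -1.13 with 10058F4, SE 0.09 for both). In M1 cells against M0 cells 6 of the 21 regulators rose and 14 fell, and 7 and 11 with arrays centred on the tested genes. Hif1a, the oxygen-regulated transcription factor subunit, rose by 1.36 (SE 0.09), and Lrpprc, which stabilises mitochondrial messenger RNA, fell by 1.66 (SE 0.08).

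**Figure D5:**
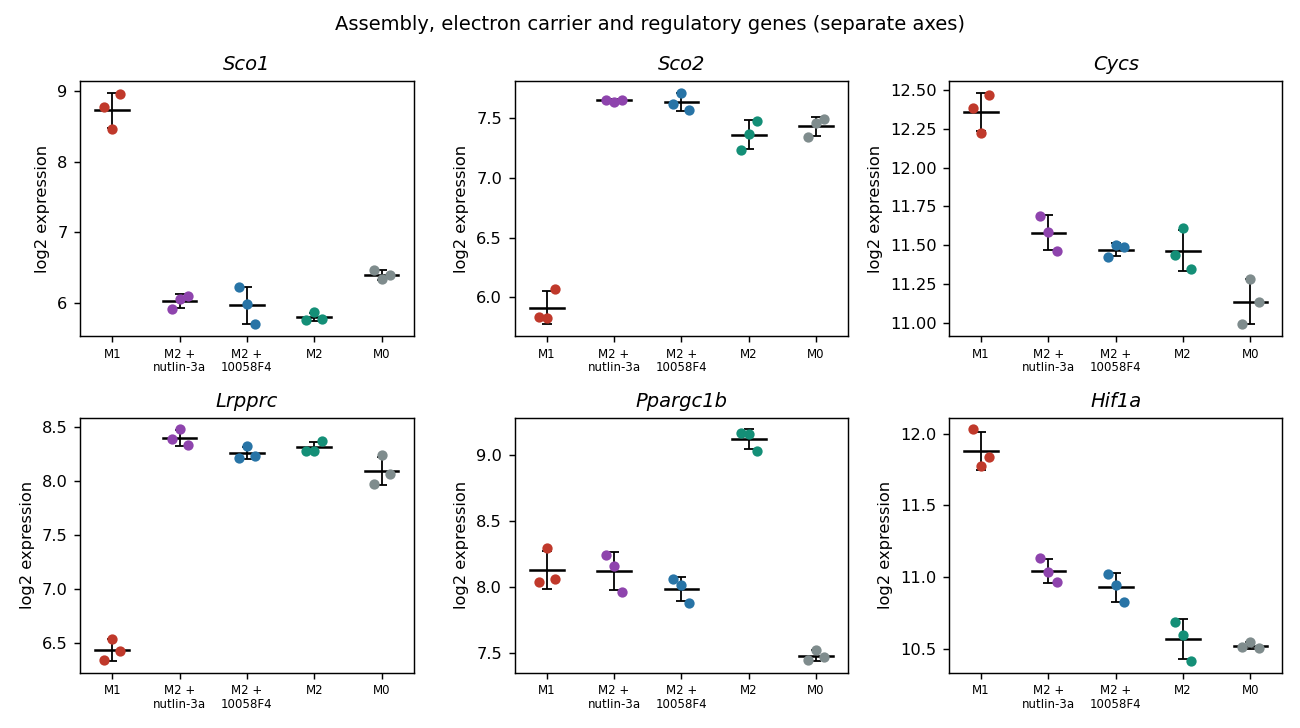
log2 expression of 2 copper chaperones (Sco1, Sco2), cytochrome c (Cycs) and 3 regulators on 15 arrays, one axis per gene, with group means and SD (n = 3). Sco1, Cycs and Hif1a lie highest in M1 cells, Sco2 and Lrpprc lowest, and Ppargc1b lies highest in M2 cells.

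The mitochondrial ribosome makes the subunits encoded in mitochondrial DNA. Of its 76 protein genes 14 rose and 43 fell in M1 cells against M0 cells, which turned to 32 higher and 22 lower with arrays centred on the tested genes. Mrpl45 rose by 0.73 (SE 0.08) and Mrpl23 fell by 1.398 (SE 0.17). In M2 cells against M0 cells 10 rose and 6 fell, against 12.7% and 18.4% of all genes. Repeated quantile normalization gave 23 higher and 3 lower, and centring on the tested genes 24 and 2. Mrps28 was higher by 0.74 (SE 0.11). With 10058F4, 12 were lower and 2 higher than in M2 cells, against 10.2% and 10.6% of all genes, with a median of -0.11. Of 21 genes of mitochondrial protein import, which brings all nuclear-encoded subunits in, 4 rose and 12 fell in M1 cells, and 8 and 6 with arrays centred on the tested genes. Timm17a rose by 0.47 (SE 0.07) and Timm21 fell by 1.31 (SE 0.09). In M2 cells 5 import genes rose, against 12.7% of all genes, with Timm10 higher by 0.61 (SE 0.08). With 10058F4, 4 were higher and 7 lower than in M2 cells, against 10.6% and 10.2% of all genes, with Tomm40, the channel of the outer membrane, at -0.45 (SE 0.08).

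In the same lists M1 cells differed from M2 cells in the largest called rises and falls as follows. Sco1 was higher by 2.93 (SE 0.13) and Sco2 fell by 1.45 (SE 0.08). Cycs was higher by 0.89 (SE 0.09) and Coq9, which serves ubiquinone synthesis, differed by -0.89 (SE 0.13). Hif1a (1.31), Mrpl45 (0.65), Timm17a (0.34) and Sdhd (0.21) were higher, and Lrpprc (-1.87), Mrps28 (-1.79), Timm21 (-1.23) and Sdha (-0.42) lower. In M2 cells against M0 cells the assembly factor Ndufaf4 rose by 0.47 (SE 0.11), and Coq8a (-0.37), Polg2 (-0.38) and Mrpl1 (-0.43) fell.

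Each agent also had companion genes that differed from M2 cells. With nutlin-3a Mterf1a, a mitochondrial termination factor, was higher by 0.49 (SE 0.10), Coq8a by 0.41, Mrpl9 by 0.39, Cox15 by 0.38 and Timm44 by 0.28, and Tomm34 (-0.31), Cox20 (-0.27) and Mrpl41 (-0.26) were lower. With 10058F4 Mterf1a was higher by 0.44 (SE 0.10), Coq8a by 0.39, Timm21 by 0.36 and Mrpl1 by 0.35, and Mrps28 (-0.48) was lower. Between the agents, nutlin-3a gave higher Mrpl17 (0.36), Coq7 (0.36) and Gabpb1 (0.35) than 10058F4, and lower Coq3 (-0.23).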

How the data were processed

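The authors deposited log2 values for each probe set of a mouse array. The submitters' processing notes name RMA, in a version not given in the sources used here, and the log base was read from the values. This method forces arrays to one intensity distribution, so a shift of most genes can appear as opposite shifts of the rest. Sample titles gave groups and replicate numbers.

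Of 45101 probe sets 64 were controls, 34945 named 1 gene, 932 several and 9160 none. Among the probe sets naming a gene alone, the one with the highest 15-array mean was used. Ndufa11, Ndufs6 and Cox7b were not analysed here. Genes that exceeded the 40th percentile of 3 or more arrays were tested with limma 3.58.1 (lmFit and eBayes, 5 group means, R 4.3.3), adjusted by Benjamini-Hochberg within each of 6 comparisons and called at an adjusted p under 0.05. Beta-actin and Gapdh control probe sets gave 3′ minus 5′ signals. Promoters were RefSeq's (GRCm38.p6). Figures were drawn in matplotlib 3.10.9 (Python 3.11.15, pandas 2.3.3). The fit was tested on simulated data.

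Full values were given for the called gene with the largest rise and fall per complex and comparison, the isoform families, and differences for the called gene with the largest rise and fall per companion list; other genes named were chosen after their values were seen. The members and lists were chosen with earlier results of these data known.

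Same-numbered arrays' deviations from group means correlated in every comparison without M1: r was 0.232 to 0.424 (M2 with M0), 0.337 to 0.381 (nutlin-3a with M2), 0.308 to 0.368 (10058F4 with M2) and 0.341 to 0.408 (nutlin-3a with 10058F4). As all exceeded 0.1, the numbers were taken as pairs there when reading the replicate block. For M1 and M0 (0.055 to 0.263) and M1 and M2 (0.0635 to 0.148) they were not. The main fit held no replicate term in any comparison, so its counts, SEs and adjusted p-values are unpaired, and the block was an alternative fit. The settings varied were the filter, the choice of probe set (mean of all, or no suffix letter), the scaling (quantile repeated, centring), the arrays fitted (6 alone, each left out), eBayes (trended and robust), array weights and the replicate block.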

Additional observations from a re-analysis of the deposited data

How the results depend on the processing

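Of 75 subunit genes, 9 were higher and 49 lower in M1 against M0 cells. Probe sets without a suffix letter, which read 58 of the genes, gave 29 lower. Centring on the tested genes gave 29 higher and 19 lower, and turned the medians of complexes I, III and V to 0.00965, 0.0946 and 0.0923, with Cox6b1 at 0.301 and Atp5g3 at 0.193. For M1 against M2 (5 higher, 49 lower) these settings gave 31 lower, and 20 higher and 26 lower with Cox6b1 at 0.23. M2 against M0 (3 higher, 0 lower) gave 6 higher and 1 lower with the mean of all probe sets, 5 and 1 without suffix letters, 8 higher after repeated quantile normalization, 14 with centring on the tested genes, 6 with trended and robust eBayes, 6 with array weights and 5 with the replicate block. For nutlin-3a against M2 (0 in either direction), 1 was lower with a stricter filter, with the mean of all probe sets, without suffix letters and with the replicate block, 3 after repeated quantile normalization and 5 with centring on the tested genes. Centring on all probe sets gave 2 higher, trended and robust eBayes 1 higher and 1 lower, and array weights 2 higher and 3 lower. For 10058F4 against M2 (15 lower), 9 were lower with no filter, 8 with centring on all probe sets and 23 with array weights, which called 1 higher. For nutlin-3a against 10058F4 (0), 2 were higher on 6 arrays alone, 1 with trended and robust eBayes, 4 with array weights and 1 with the replicate block. Leaving out each array gave 6 to 11 higher and 44 to 49 lower (M1 against M0), 1 to 4 higher (M2 against M0), 5 to 8 higher and 46 to 50 lower (M1 against M2) and 1 to 10 lower (10058F4 against M2), and 0 for the other counts. The causes were not tested. Shares of all genes are not given beside the counts of this paragraph. The counts therefore say how far the calls depend on the setting and no more. The block changed the count of calls by over 1.5 times in no other comparison. With M1 cells, where numbers were not taken as pairs, it gave 10 higher and 49 lower against M0 cells and 5 and 49 against M2 cells. Dim probe sets, such as those of Cox4i2, Cox6b2, Cox7a1, Cox7c and Cox8b, limit the isoform results. Of 43 subunit genes with several probe sets, 32 had all of one sign in M1 against M0 cells, and Ndufa3, Ndufb2 and Ndufs4 had probe sets past an unadjusted p of 0.05 in both directions.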

Other observations

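Some of the listed regulators that act on mitochondrial DNA or on nuclear genes for mitochondrial proteins had the following values in M1 cells. They were chosen after their values were seen, and not all of the 21 are given. The differences are those of the deposited normalization. There 6 of the 21 rose and 14 fell, against 33.6% and 39.1% of all genes. With arrays centred on the tested genes these became 7 and 11, beside 55.6% and 25.6%. The mitochondrial RNA polymerase Polrmt differed by -0.53 (SE 0.10). The mitochondrial transcription factor Tfb2m averaged 7.21 ± 0.423 in M1 cells and 8.49 ± 0.0505 in M0 cells (SD, n = 3; limma log2 difference -1.28, SE 0.14). Polg, the catalytic subunit of the mitochondrial DNA polymerase, differed by -0.89 (SE 0.08). Its accessory subunit Polg2 averaged 6.08 ± 0.132 in M1 cells and 7.08 ± 0.0387 in M0 cells, and the single-stranded DNA binding protein Ssbp1 differed by -0.84 (SE 0.06). Lrpprc and its binding partner Slirp went opposite ways, with Slirp at 10.85 ± 0.137 in M1 cells and 9.93 ± 0.038 in M0 cells (0.93, SE 0.07). The GABP activator binds the ETS motif with a DNA-binding subunit, Gabpa, which was at 8.45 ± 0.0887 in M1 cells and 9.47 ± 0.00684 in M0 cells (-1.02, SE 0.07). Of its partner subunits, Gabpb2 differed by -1.10 (SE 0.07) and Gabpb1 by 0.74 (SE 0.08).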
